A study of Mus musculus with 32 samples.

Results

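The treatment of mouse embryonic stem cells with the liver X receptor agonist T0901317 was examined at passage 6, with the 2 treated libraries (NrESC) set against the 2 passage-matched untreated libraries (ESC). These 4 libraries were chosen by their passage label out of 32 in the series, which sampled both arms at 8 passages with 2 libraries each. NrESC at passage 6 were wild-type E14 embryonic stem cells given 10 µM T0901317. ESC at passage 6 were the same line without the agonist. Both arms shared serum, LIF, the GSK3 inhibitor CHIR99021, the MEK inhibitor PD0325901 and gelatin, and polyadenylated RNA was sequenced. E14 is a single established line, so the libraries sample 1 genetic background. Nothing in the labels ties the paired libraries of a group to separate cultures, so p-values here reflect only how far these samples spread. For context, the passage 6 difference was set against the difference at the flanking passages 4 and 10 (4 libraries each). Passage 8 was passed over because its treated libraries were already known to stand apart.

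Liver X receptors (LXR) are nuclear receptors that bind oxysterols and pair with the retinoid X receptor on DNA. In most cell types they raise transcription of sterol exporters such as Abca1 and Abcg1, of Mylip, which encodes a ubiquitin ligase, and of Srebf1, the master regulator of fatty acid synthesis. T0901317 is a synthetic ligand that also acts on other nuclear receptors. The series title places the study in nuclear receptors and expanded pluripotency, so lists of genes for early embryonic states and lineages were examined beside the metabolic ones.

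The 4 libraries held 39977652 and 30561411 counts in NrESC and 27691815 and 45818061 in ESC. Scaling factors over the series lay between 0.979 and 1.03. The 10 markers of embryonic stem cells were all detected, the lowest at 69.35 TPM (transcript level scaled to a common sum, corrected for gene length). They summed to 11740 and 12190 TPM in NrESC, against 10860 and 10730 TPM in ESC, with 5 markers called higher and 4 lower. Marker sets of trophectoderm, primitive endoderm, mesoderm, neuroectoderm and fibroblasts summed to at most 12.7 TPM in any of the 4 libraries. In the trophectoderm set 3 of 5 tested markers were called lower and 0 higher. Of 9 fibroblast markers, 3 were at 0 in all 4 libraries. Blood and endothelial markers summed to 75.2 and 73.7 TPM in NrESC and 68.0 and 67.7 TPM in ESC, nearly all of it Pecam1, which embryonic stem cells also express. On the first principal component of log2 CPM (scaled counts relative to the library total), NrESC lay at 10.9 and 12.4 and ESC at -42.4 and -42.6.

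At passage 6, 7322 of 15036 tested genes (48.7%) were called at an adjusted p under 0.05 by edgeR's quasi-likelihood test with Benjamini-Hochberg adjustment. Of all genes tested, 23.6% were called higher in NrESC (3547 genes) and 25.1% lower (3775 genes). Most of these differences were small: 73.3% of the called genes differed by less than 1.5-fold. A change of 2-fold or more was seen for 320 genes higher in NrESC (2.13%) and 594 lower (3.95%). The median log2 fold change of all genes was -0.0023, and these shares are the background for every list that follows. Both NrESC libraries lay above both ESC libraries for 35.4% of genes and below them for 36.5%, so separation of the 4 libraries alone was common.

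**Figure D1:**
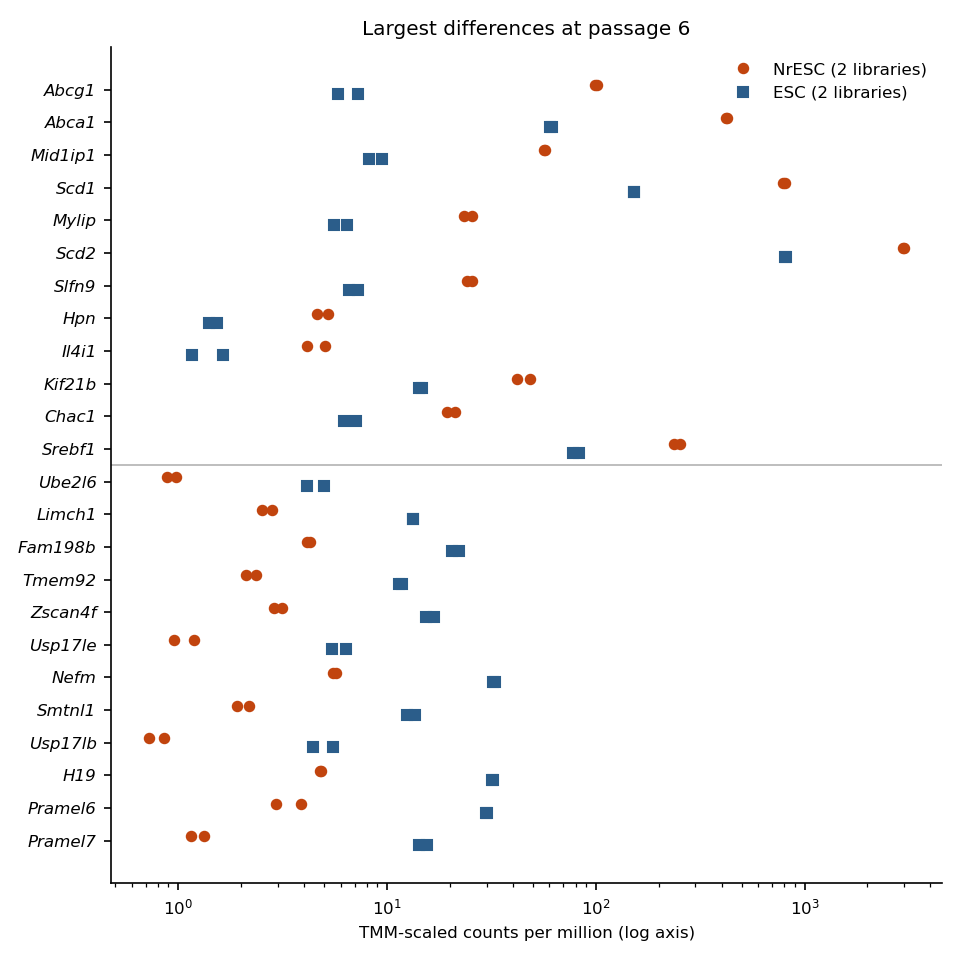
Expression of the 12 genes with the highest and the 12 with the lowest fold change at passage 6, by the naming rule given with the methods. Each point is 1 library, NrESC and ESC, on a log10 axis of CPM; the genes above the line were higher in NrESC and those below it lower, and in none of the 24 did the libraries of the groups overlap.

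The highest fold changes were led by LXR targets of lipid metabolism, and the lowest by Pramel7 and Pramel6, followed by H19, as the plot of the largest changes shows. Abcg1, a sterol exporter of the ABC transporter family, had 99.4 and 102 CPM in the NrESC libraries, against 5.81 and 7.26 CPM in the ESC libraries. Its fold change was 3.91 on the log2 scale (SE 0.0607, adjusted p = 6.47e-39), the highest of the 12. Among the 12 were 6 other genes of the LXR lists, Abca1, Mid1ip1, Scd1, Mylip, Scd2 and Srebf1. The other members included Slfn9, a Schlafen family gene, with 24.2 and 25.4 CPM in NrESC and 6.61 and 7.26 CPM in ESC. Kif21b, a kinesin motor, had 42.1 and 48.3 CPM in NrESC and 14.3 and 14.7 CPM in ESC. Its libraries were apart by far more than the gap within either group.

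At the other end, Pramel7 had 1.33 and 1.15 CPM in NrESC against 14.3 and 15.6 CPM in ESC (log2 difference -3.58, SE 0.136, adjusted p = 1.45e-24). H19, an imprinted noncoding RNA normally made from the maternal chromosome, had 4.79 and 4.81 CPM in NrESC against 31.9 and 32.3 CPM in ESC (-2.74, SE 0.0833). Nefm, the medium neurofilament subunit, had 5.52 and 5.74 CPM in NrESC against 33.0 and 32.2 CPM in ESC (-2.53). For all of these the ESC libraries were high and nearly equal, and the NrESC libraries low and nearly equal.

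Sterol exporters and lipoprotein genes were higher in NrESC for 10 of 17 tested members and lower for 0, with a median log2 fold change of 0.52. Abca1, which loads cellular cholesterol onto apolipoprotein A1, had 425 and 421 CPM in NrESC and 61.7 and 60.6 CPM in ESC. The difference was 2.79 on the log2 scale (SE 0.0321, adjusted p = 4.46e-44). Mylip had 25.5 and 23.3 CPM in NrESC and 6.47 and 5.56 CPM in ESC (2.05). Lpcat3, which places polyunsaturated chains in membrane phospholipids, had 178 and 175 CPM in NrESC and 80.7 and 83.9 CPM in ESC (1.10). Smaller rises were seen for Apoe, an apolipoprotein (0.61), Stard4, a sterol carrier (0.57), Pltp, a phospholipid transfer protein (0.50), and Scarb1, an HDL receptor (0.42). Members that did not pass the test included Npc1 at -0.13 and Npc2 at 0.03, which move cholesterol out of lysosomes, and Lpl, a lipase, at 0.01.

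The sequence before the start of Abca1 and Srebf1 is shown because both hold the direct repeat that LXR and its partner bind. RefSeq promoters of build GRCm38.p6 were searched from 250 bases before to 50 bases after each start, on both strands, for 2 copies of GGTNA with 5 bases of any kind between them. The 250 bases before the start are printed, 5′ to 3′ on the strand of the gene, with the match in capitals. The Abca1 window is chr4:53159896-53160145 on the minus strand and its match begins at position -67. The Srebf1 window is chr11:60210472-60210721 on the minus strand and its match begins at position -182. In both the match is read on the opposite strand to the gene. Windows of the other 2 Srebf1 starts held no match.
Abca1: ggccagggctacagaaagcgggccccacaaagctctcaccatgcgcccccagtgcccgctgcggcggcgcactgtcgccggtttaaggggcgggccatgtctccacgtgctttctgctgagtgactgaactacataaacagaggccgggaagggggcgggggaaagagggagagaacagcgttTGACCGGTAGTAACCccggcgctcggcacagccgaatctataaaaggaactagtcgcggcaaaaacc
Srebf1: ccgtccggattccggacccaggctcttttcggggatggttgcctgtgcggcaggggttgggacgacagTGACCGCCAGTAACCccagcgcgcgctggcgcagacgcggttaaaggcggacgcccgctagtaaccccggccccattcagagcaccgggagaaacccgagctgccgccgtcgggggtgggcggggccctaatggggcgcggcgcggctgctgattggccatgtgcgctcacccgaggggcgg
The repeat was found in 73 of 14823 promoters of tested genes (0.492%). It was found in 1 of 12 promoters of the sterol exporter list (Abca1) and in 4 of 28 of the lipogenic list (Acsl3, Elovl1, Fasn and Srebf1). A match is a match of letters in these windows only.

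Lipogenic genes were higher in NrESC for 19 of 26 tested members and lower for 2, with a median of 0.44. Srebf1 had 238 and 254 CPM in NrESC, against 82.8 and 78.0 CPM in ESC (log2 difference 1.62, SE 0.0379, adjusted p = 4.21e-32). Scd1 and Scd2, desaturases that make monounsaturated fatty acids, were near-equal between libraries of a group. Scd1 had 806 and 790 CPM in NrESC and 152 and 153 CPM in ESC (2.39). Scd2 had 2999 and 2947 CPM in NrESC and 818 and 803 CPM in ESC (1.88). The Scd copies are alike in sequence, so their separate values depend on how the counting divided shared reads.

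Mid1ip1, which promotes polymerisation of acetyl-CoA carboxylase, had 56.3 and 57.0 CPM in NrESC and 9.43 and 8.17 CPM in ESC (2.71). The enzymes at the core of the pathway rose by less: Acaca by 1.08, Fasn by 0.75 and Acly by 0.43 on the log2 scale. The desaturases of polyunsaturated fatty acids, Fads2 at 1.02 and Fads1 at 0.93, also rose. The 2 lower members were Elovl6, a chain elongase (-0.15), and Mlxipl, which encodes the glucose-responsive factor ChREBP and is itself an LXR target in liver (-0.72).

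Cholesterol synthesis genes, which SREBP2 controls, were higher in NrESC for 20 of 23 tested members and lower for 0, with a median of 0.47. The range ran from 0.04 for Hsd17b7, which did not pass, to 1.01 for Dhcr7, the last reductase of the pathway. Dhcr7 had 122 and 119 CPM in NrESC and 60.2 and 59.3 CPM in ESC. Msmo1, a sterol demethylating oxidase, had 223 and 212 CPM in NrESC and 127 and 136 CPM in ESC (0.72). The NrESC libraries were above the ESC libraries for both genes. Hmgcs1 was not analysed here. The sterol regulatory element, for which SREBP2 is named, was searched as TCACNCCAC in the same promoter windows and on both strands. It was found in 0 of 20 promoters of the cholesterol synthesis list. Among all promoters of tested genes it was found in 183 of 14823 (1.23%). As before, this concerns letters in these windows only. Sterol sensing and uptake genes were higher for 6 and lower for 2 of 14, with a median of 0.23. Insig1, which retains the SREBP complex when sterols are plentiful, had 103 and 107 CPM in NrESC and 64.1 and 61.9 CPM in ESC (0.74). Srebf2 itself had a log2 fold change of 0.53.

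Neither LXR gene passed the test. Nr1h2, the gene of LXR beta, differed by 0.05 (adjusted p = 0.395) and Nr1h3, the gene of LXR alpha, by -0.28 (adjusted p = 0.483). Rxra was lower by 0.16 on the log2 scale (adjusted p = 0.00616), a call lost when ESC replicate 1 was left out (adjusted p = 0.0553). Of 17 receptors and coregulators, 1 was higher and 7 were lower, with a median of -0.16. Without ESC replicate 1, 4 were lower. The called coregulators were Ncoa1, Ncoa2, Ncoa3, Ncor1 and Nrip1, at -0.11 to -0.41. Rxrg, a gene of another retinoid X receptor, was also called lower, at the limit of detection, with 0.0252 and 0 CPM in NrESC and 0.146 and 0.110 CPM in ESC.

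Fatty acid oxidation genes were lower in NrESC for 12 of 22 and higher for 4, with a median of -0.13. The carnitine carrier Slc25a20, which brings acylcarnitines into mitochondria, had 82.7 and 85.3 CPM in NrESC and 131 and 128 CPM in ESC (-0.62). Acadvl, the very-long-chain dehydrogenase, fell by 0.53 on the log2 scale. The 4 higher members included Cpt1b, a carnitine palmitoyltransferase (1.14), and Pdk4, a brake on pyruvate dehydrogenase (0.83), both at under 10 CPM in all 4 libraries.

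**Figure D2:**
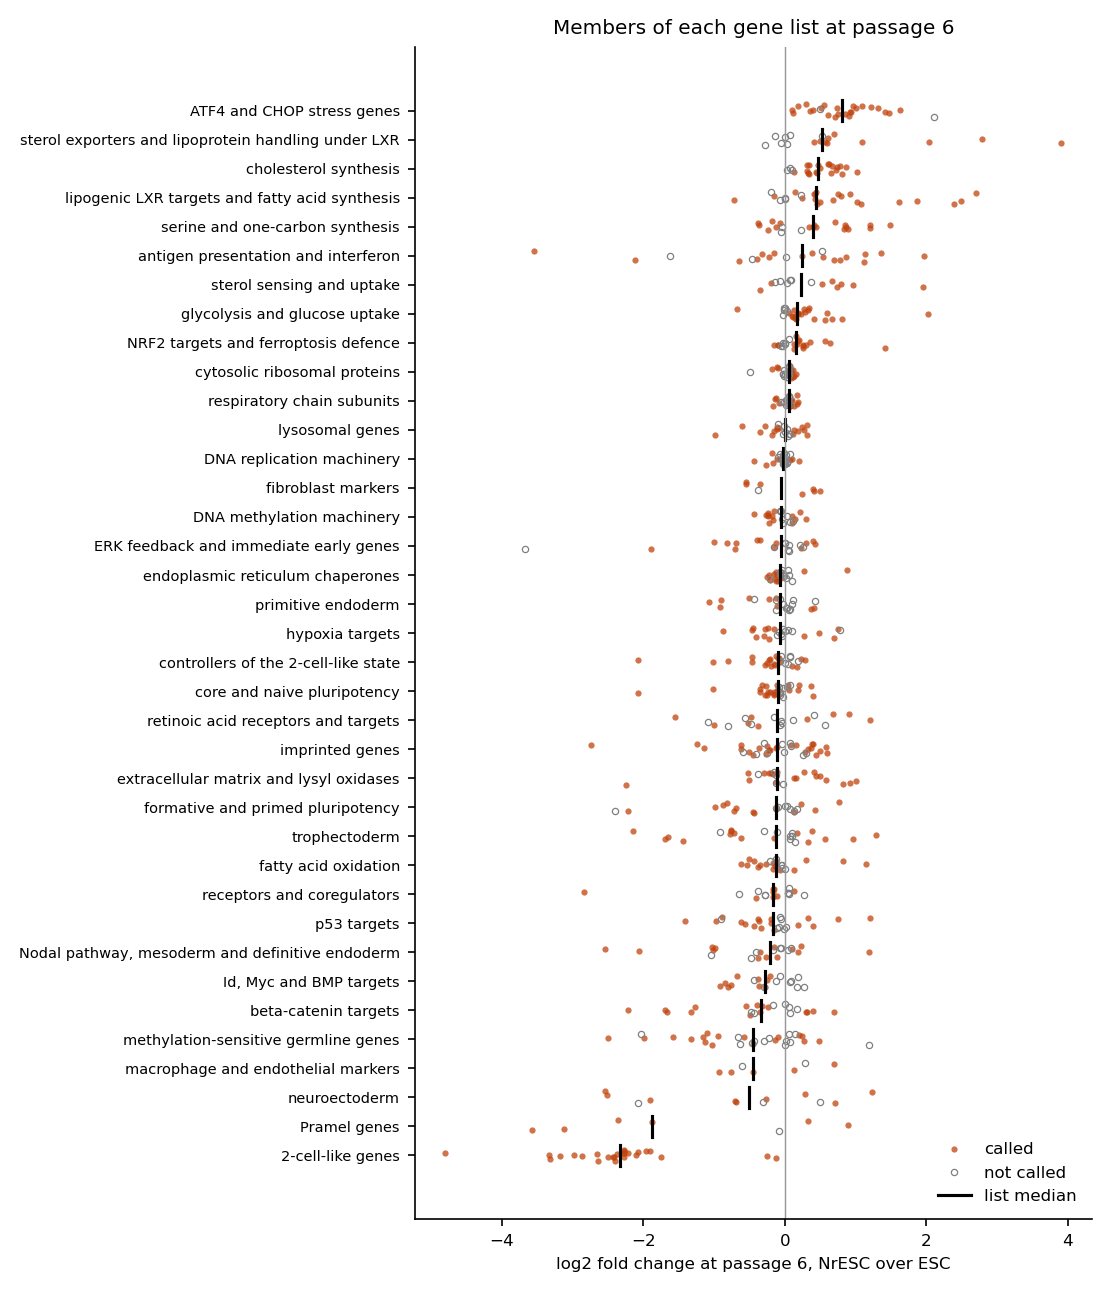
Log2 fold change, NrESC over ESC at passage 6, of each tested member of the 37 gene lists. Filled points passed the test, open points did not, and the black bar is the median of the list; the 2-cell-like list lies lowest, with a median of -2.32, and the ATF4 and CHOP list highest, with a median of 0.80.

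Genes of the integrated stress response had the highest median of the 37 lists. ATF4 and CHOP are transcription factors made when amino acids run short or protein folding fails, and their targets import and make amino acids. Of 26 tested members 24 were higher in NrESC and 0 lower, with a median of 0.80. Chac1, which breaks down glutathione, had 19.4 and 21.2 CPM in NrESC and 7.09 and 6.20 CPM in ESC (1.63, SE 0.0961, adjusted p = 4.46e-18). Pck2, mitochondrial phosphoenolpyruvate carboxykinase, had 122 and 123 CPM in NrESC and 49.0 and 49.3 CPM in ESC (1.32). Trib3, a pseudokinase, had 38.2 and 39.0 CPM in NrESC and 18.5 and 17.8 CPM in ESC (1.09). In each of these the arms were well apart.

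The factors rose too. Atf4 had 426 and 439 CPM in NrESC and 298 and 288 CPM in ESC (0.56). Ddit3, which encodes CHOP, had 9.09 and 9.13 CPM in NrESC and 4.28 and 5.10 CPM in ESC (0.93). The amino acid transporter Slc7a5 had 581 and 590 CPM in NrESC and 322 and 325 CPM in ESC (0.86). Asns, asparagine synthetase, was at a much higher level and rose by less (0.39).

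ATF4 and its partners bind the amino acid response element, searched as TGATGNAA in the same promoter windows and on both strands. It was found in 10 of 26 promoters of this list, those of Asns, Atf3, Chac1, Fgf21, Nupr1, Pck2, Pycr1, Slc7a11, Trib3 and Vldlr. All tested promoters held it in 2.3% of cases (341 promoters). The Chac1 window is shown as the member with the highest called fold change of the list, at chr2:119350992-119351241 of GRCm38.p6 on the plus strand. Its match, in capitals and read on the opposite strand to the gene, begins at position -193.
Chac1: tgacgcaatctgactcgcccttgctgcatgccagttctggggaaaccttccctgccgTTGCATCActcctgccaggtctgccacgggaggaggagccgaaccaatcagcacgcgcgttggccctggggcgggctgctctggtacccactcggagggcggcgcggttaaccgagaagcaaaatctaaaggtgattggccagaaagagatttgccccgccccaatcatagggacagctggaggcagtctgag
All of these but Fgf21 were called higher in NrESC. Fgf21 had a log2 fold change of 2.12 and did not pass the test.

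Serine and one-carbon genes, several of them ATF4 targets, were higher in NrESC for 12 of 21 and lower for 6, with a median of 0.40. Phgdh, the first enzyme of serine synthesis, had 232 and 243 CPM in NrESC and 105 and 101 CPM in ESC (1.21). Psat1, the second enzyme, had 564 and 565 CPM in NrESC and 306 and 301 CPM in ESC (0.90). Slc1a5, a glutamine and neutral amino acid transporter, had 141 and 149 CPM in NrESC and 62.6 and 63.1 CPM in ESC (1.21). Folate enzymes of nucleotide synthesis were among the lower ones, with Tyms at -0.12 and Mthfd1 at -0.07, as was Gldc, the glycine decarboxylase, at -0.37.

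Chaperones of the endoplasmic reticulum did not share the rise. Of 23 tested members 10 were lower and 2 higher, with a median of -0.06, and 1 was higher without replicate 2 of either arm. Hspa5, the main chaperone of that compartment, had 727 and 731 CPM in NrESC and 808 and 787 CPM in ESC (-0.13). The 2 higher members were Herpud1, a degradation factor that ATF4 also controls (0.88), and Ern1, which encodes the sensor IRE1 (0.27). NRF2 targets and ferroptosis genes were higher for 14 and lower for 3 of 23, with a median of 0.16 (1 lower without ESC replicate 2), and Nqo1, a quinone reductase, rose by 0.56 on the log2 scale. Among p53 targets 5 were higher and 12 lower of 24, with a median of -0.17. Gdf15, a stress cytokine that ATF4 and CHOP also induce, rose (1.21), while the death factor Pmaip1 fell to 12.8 and 13.0 CPM in NrESC, against 34.0 and 34.5 CPM in ESC (-1.41).

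The 2-cell-like genes mark a rare, fluctuating state of embryonic stem cells that resembles the embryo after its first cleavage, and they include the Zscan4 cluster and their activator Dux. All 26 tested members of the 43 listed were lower in NrESC, 24 of them by 2-fold or more, with a median of -2.32. Of the 43, 35 had an entry, and the rest of these had too few counts to be tested. The count filter could be met by the 2 libraries of 1 group, so low members such as Dux could enter through untreated libraries alone. The count and median of this list hold only for members chosen in that way. Zscan4c had 7.08 and 7.55 CPM in NrESC, against 32.5 and 37.7 CPM in ESC (-2.28, SE 0.0789, adjusted p = 6.43e-26). Zscan4f had 3.15 and 2.87 CPM in NrESC and 15.4 and 16.7 CPM in ESC (-2.41). Zfp352, a zinc finger gene of this state, had 0.453 and 0.659 CPM in NrESC and 2.16 and 2.10 CPM in ESC (-1.95). Dux was near the limit of detection, with 0.0252 and 0.033 CPM in NrESC and 0.329 and 0.309 CPM in ESC.

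Every NrESC library was below every ESC library for these 4 genes. The Zscan4, Usp17l and Pramel families hold near-identical copies, so the value of a single copy depends on how the counting divided reads among them. In RNA of a whole culture, fewer cells in the state and less RNA per cell in it cannot be told apart. The 2 members that fell least were Eif1a (-0.12) and Mdn1 (-0.25), which are expressed broadly.

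Known controllers of that state were lower for 16 of 27 and higher for 4, with a median of -0.10. Dppa2, an activator of Dux, had 90.2 and 85.0 CPM in NrESC and 173 and 180 CPM in ESC (-1.01), while its partner Dppa4 was at -0.25. Dppa3 had 0.428 and 0.560 CPM in NrESC and 2.12 and 2.01 CPM in ESC (-2.07). Repressors were called in both directions and by small amounts, with Trim28 at -0.15, Rif1 at -0.46 and Kdm1a at 0.10. Of 7 tested Pramel genes 4 were lower and 2 higher. Pramel6, which with Pramel7 promotes loss of DNA methylation in naive cells, had 3.88 and 2.93 CPM in NrESC and 29.9 and 30.0 CPM in ESC (-3.11). Pramel1 (0.89) and Pramef12 (0.32) were the higher ones.

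Germline genes that are silenced by promoter methylation in somatic cells were lower in NrESC for 13 of 30 and higher for 4, with a median of -0.44. Hormad1, a protein of the meiotic chromosome axis, had 6.88 and 7.75 CPM in NrESC and 20.8 and 22.3 CPM in ESC (-1.57). Tex15 had 15.6 and 14.9 CPM in NrESC and 32.3 and 33.1 CPM in ESC (-1.09). Dazl, an RNA-binding protein of germ cells, had 15.6 and 14.3 CPM in NrESC and 28.3 and 29.3 CPM in ESC (-0.94). For the 4 higher members, of which Stag3 at 0.48 was highest, the count was 1 without NrESC replicate 1 and 2 without each of the other libraries in turn.

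Of the DNA methylation machinery 5 genes were higher and 9 lower of 21, with a median of -0.06, and 3 were higher without NrESC replicate 2 or ESC replicate 1. Dnmt3b, a de novo methyltransferase, had 83.1 and 82.4 CPM in NrESC and 111 and 112 CPM in ESC (-0.43). Dnmt1 at -0.03, Dnmt3a at 0.08 and Tet1 at 0.03 (adjusted p = 0.254) did not pass the test. Imprinted genes were called in both directions, 11 higher and 14 lower of 35, with a median of -0.11. H19, given above, was the lowest of them. Its neighbour Igf2, a growth factor expressed from the other parental chromosome, had 2.17 and 2.11 CPM in NrESC and 4.17 and 5.72 CPM in ESC (-1.24). Meg3, a maternally expressed noncoding RNA of another imprinted cluster, had 65.8 and 61.6 CPM in NrESC and 44.2 and 45.9 CPM in ESC (0.50), and Dlk1 of the same cluster fell by 1.13 on the log2 scale.

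Core and naive pluripotency genes were higher for 6 of 31 and lower for 17, with a median of -0.10, and most differences were small. Pou5f1, which encodes Oct4, had 1608 and 1652 CPM in NrESC and 1567 and 1543 CPM in ESC. Its log2 fold change of 0.07 (adjusted p = 0.0238) did not pass without NrESC replicate 2 (adjusted p = 0.216) or without ESC replicate 2 (adjusted p = 0.154). Sox2 had 375 and 378 CPM in NrESC and 422 and 414 CPM in ESC (-0.15). Nanog had 1314 and 1303 CPM in NrESC and 1662 and 1686 CPM in ESC (-0.36). Among the 3 core factors Nanog thus had the lowest fold change, and Klf4, a naive factor, moved the other way with 346 and 360 CPM in NrESC and 273 and 262 CPM in ESC (0.40).

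Formative and primed genes were higher for 4 of 21 and lower for 9, with a median of -0.12. Tcf15 (0.77) and Otx2 (0.43), early factors of the exit from naive pluripotency, rose. Zic2 (-0.98), Grhl2 (-0.87), Foxd3 (-0.72) and Sox3 (-0.69) fell. Fgf5 was not tested because of its low counts. Trophectoderm genes were called in both directions, 6 higher and 10 lower of 24, with a median of -0.13. Krt8, an epithelial keratin, had 63.3 and 65.4 CPM in NrESC and 32.4 and 33.3 CPM in ESC (0.97). Cdx2, the lineage-defining factor, had 0.529 and 0.659 CPM in NrESC and 1.86 and 1.94 CPM in ESC (-1.70). Gata3, another factor of that lineage, was lower as well (-2.14).

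In the primitive endoderm list 7 of 21 were lower and 2 higher (1 without ESC replicate 2), with a median of -0.06. Dab2, an endocytic adaptor, had 4.41 and 5.74 CPM in NrESC and 9.87 and 11 CPM in ESC (-1.07). Gata6 was at or under 1.53 CPM in all 4 libraries, and its log2 fold change of -0.90 (adjusted p = 0.00833) did not pass without NrESC replicate 1 (adjusted p = 0.28) or ESC replicate 1 (adjusted p = 0.074). In the Nodal, mesoderm and endoderm list 10 of 22 were lower and 4 higher, with a median of -0.21, and 2 were higher without NrESC replicate 2 or ESC replicate 1. The Nodal ligand itself was at -0.10. Its feedback inhibitor Lefty2 had 92.7 and 93.9 CPM in NrESC and 187 and 192 CPM in ESC (-1.02). T, which encodes brachyury, had a log2 fold change of -0.47 and did not pass (adjusted p = 0.199), but passed at -1.03 without NrESC replicate 1 (adjusted p = 0.0473).

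Neuroectoderm genes were lower for 6 of 12 and higher for 3, with a median of -0.50. The light neurofilament subunit Nefl had 13.4 and 13.9 CPM in NrESC and 52.1 and 50.6 CPM in ESC (-1.91), close to Nefm above. Sox1, an early neural factor, went the other way at 0.71. Signalling lists leaned lower as well. Of beta-catenin targets 11 were lower and 4 higher of 22, with a median of -0.34, yet Axin2, the most general target of the pathway, had 41.4 and 40.5 CPM in NrESC and 42.2 and 39.7 CPM in ESC (0.01, not passed). Both arms received the GSK3 inhibitor.

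Among Id, Myc and BMP genes 10 of 19 were lower and 0 higher, with a median of -0.27. Myc had 15.8 and 17.2 CPM in NrESC and 29.0 and 28.2 CPM in ESC (-0.80). Id3, a BMP target that blocks differentiation factors, had 19 and 19.5 CPM in NrESC and 37.9 and 34.5 CPM in ESC (-0.91). ERK feedback genes were lower for 9 and higher for 4 of 22 (2 without NrESC replicate 1), with a median of -0.06. Retinoic acid genes were higher for 4 and lower for 5 of 20, near the shares of all genes (23.6% and 25.1%). Their median was -0.11, and members ran from -1.55 to 1.21 on the log2 scale. Among the higher ones, Rara, a retinoic acid receptor, had 71.2 and 67.6 CPM in NrESC and 36.5 and 37.5 CPM in ESC (0.91). Tgm2, a transglutaminase that retinoids induce in many cells, had 48.3 and 53 CPM in NrESC and 23.8 and 20.4 CPM in ESC (1.21).

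Antigen presentation and interferon genes were called in both directions. Of 21 tested members 10 were higher and 7 lower, with a median of 0.24, and 4 were lower without ESC replicate 2. H2-K1, a class I chain, had 40.1 and 41.8 CPM in NrESC and 17.6 and 19.5 CPM in ESC (1.13), and H2-D1, another class I chain, rose by 0.24 on the log2 scale. Bst2, an interferon-inducible membrane protein, had 33.4 and 35.5 CPM in NrESC and 13.7 and 13.2 CPM in ESC (1.36). H2-Eb1, a class II chain at a low level, had 0.378 and 0.231 CPM in NrESC and 3.95 and 3.51 CPM in ESC (-3.54), and Ciita, the class II activator, fell by 2.12 on the log2 scale. Cd74, the class II invariant chain, rose by 0.70 on the log2 scale.

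Other lists were called in both directions. Lysosomal genes were higher for 7 and lower for 9 of 24, with a median of -0.00090. DNA replication genes were higher for 3 and lower for 6 of 24 (median -0.02), and extracellular matrix genes higher for 10 and lower for 9 of 24 (median -0.11). Respiratory chain subunits were higher for 8 and lower for 4 of 25 (median 0.05), and 3 were higher without ESC replicate 2. Lists of cells that the culture should lack showed 4 higher and 3 lower of 8 fibroblast genes (median -0.05). Of 7 macrophage and endothelial genes 2 were higher and 3 lower (median -0.45). The tested genes of these lists were not silent: the fibroblast list summed to 253 to 297 CPM in the 4 libraries and the macrophage and endothelial list to 152 to 157 CPM. Without NrESC replicate 2 or ESC replicate 1, 2 fibroblast genes were higher, and without any 1 of the 4 libraries 1 macrophage or endothelial gene was.

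The treated and untreated arms differed at passages 4 and 10 as well, and comparing the 3 passages shows which differences were of a like size at passage 6 and which were not. At passage 4, 27.4% of genes were called higher in NrESC and 26.9% lower, and at passage 10, 27% and 28.5%. A difference of 2-fold or more was called for 2.38% higher and 4% lower at passage 4, and for 4.08% and 3.65% at passage 10. Of the 320 genes higher by 2-fold or more at passage 6, 141 were also higher by 2-fold or more at passage 4 (44.1%, and 39.4% of the 358 at passage 4). The number shared with passage 10 was 201 (62.8%, and 32.7% of the 614 at passage 10). Of the 594 genes lower by 2-fold or more, 311 were shared with passage 4 (52.4%, and 51.7% of 601) and 371 with passage 10 (62.5%, and 67.6% of 549). Few of them were called in the opposite direction: 0 of the higher and 4 of the lower genes at passage 4, and 1 and 4 at passage 10.

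The difference at passage 6 was also tested against the mean of the differences at passages 4 and 10. By this test 561 genes were called higher (3.73%) and 421 lower (2.8%), and 4 (0.0266%) and 16 (0.106%) of these by 2-fold or more. On log2(TPM + 1) values the split was 1006 higher and 253 lower. Among ATF4 and CHOP genes, 1 of 26 was higher and 5 were lower in this test (3 lower without any 1 of the 4 libraries), with medians of the arm difference of 0.91, 0.80 and 0.97 at passages 4, 6 and 10. Cholesterol synthesis genes had medians of 0.49, 0.47 and 0.38, and 6 of 23 were called higher at passage 6 than in the flanking passages. Without NrESC replicate 1 or ESC replicate 1, 2 were. Of the 2-cell-like genes 4 of 26 were higher in this test, that is, had a smaller deficit at passage 6, and 1 without ESC replicate 1 or 2 without either NrESC replicate. Within each arm, passage 6 was above the mean of its own passages 4 and 10 for 13.4% of genes and below it for 12.7% in NrESC, and for 13.2% and 12.4% in ESC. These shares depend on the unit, with 916 genes above and 2602 below in NrESC and 694 above and 3997 below in ESC on log2(TPM + 1) values.

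**Figure D3:**
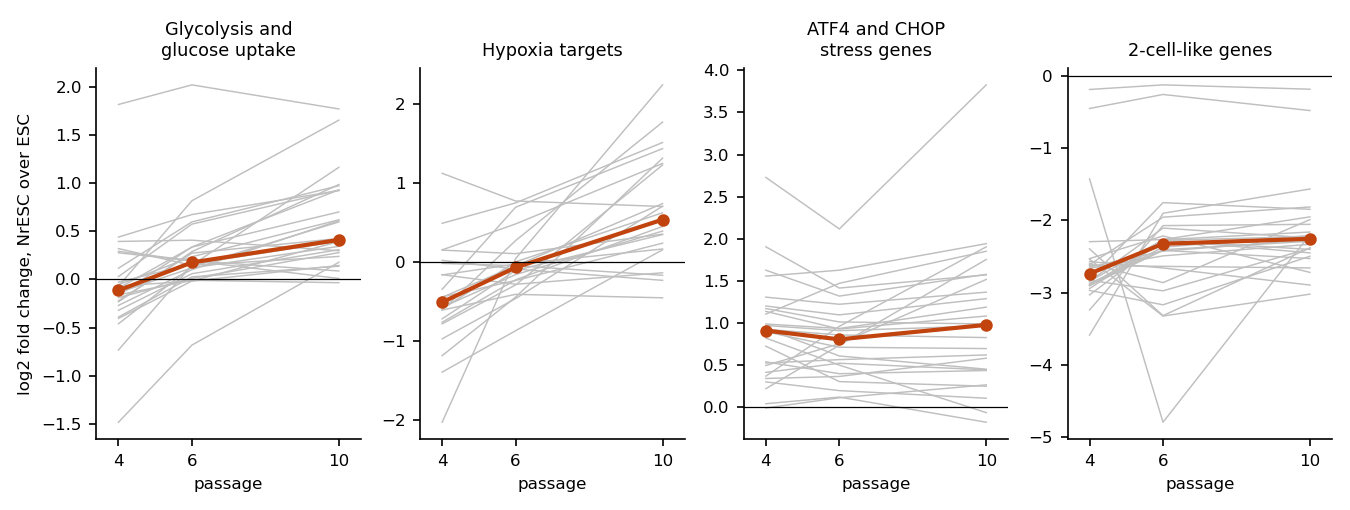
Log2 fold change, NrESC over ESC, at passages 4, 6 and 10 for the tested members of 4 gene lists. Each grey line is 1 gene and the orange line is the median of the list; the medians of glycolysis (-0.11, 0.18 and 0.41) and hypoxia targets (-0.51, -0.07 and 0.54) rise from passage 4 to passage 10, while the stress and 2-cell-like lists keep their side of 0.

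Glycolysis and hypoxia genes were the lists whose arm difference moved most between the flanking passages, with passage 6 in between, as the plot of the 4 lists over passages shows. These lists were examined step by step after the data had been seen. At passage 6, 20 of 26 tested glycolysis genes were higher in NrESC and 1 lower, with a median of 0.18. At passage 4, 7 were higher and 16 lower (median -0.11), and at passage 10, 23 were higher and 0 lower (median 0.41). Tested directly, the arm difference at passage 6 was above that at passage 4 for 20 of 26 and below it for 1, while 8.28% of all genes were above (1245) and 8.36% below (1257), or 2366 and 620 on log2(TPM + 1) values. Against passage 10 it was above for 0 and below for 19, while 5.71% of all genes were above and 4.14% below.

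Pfkp, a phosphofructokinase that commits glucose to glycolysis, had 351 and 354 CPM in NrESC and 240 and 234 CPM in ESC at passage 6 (0.57). Its fold change was 0.03 at passage 4 and 0.93 at passage 10, and passage 6 differed from both (0.54, adjusted p = 1.43e-15, and -0.35, adjusted p = 3.37e-10). Ldhb, a lactate dehydrogenase subunit, had 265 and 270 CPM in NrESC and 180 and 174 CPM in ESC at passage 6, with fold changes of 0.12, 0.60 and 0.97 at the 3 passages. Aldoc, an aldolase, followed the same order at -0.07, 0.82 and 1.65. The most abundant enzymes were level between arms at passage 6, with Gapdh at -0.02, Pkm at 0.01 and Ldha at -0.02, none of which passed. Pfkfb3, which makes the activator of phosphofructokinase, was the 1 lower member at -0.68, against -1.48 at passage 4 and 0.18 at passage 10.

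Both arms moved between these passages. From passage 4 to passage 6, 24 of 26 glycolysis genes fell in ESC and 1 rose (median -0.48), whereas in NrESC 16 fell and 5 rose (median -0.13). Over all genes, 19.8% rose and 19% fell in ESC in that step, and 16.7% and 18.3% in NrESC. These shares for all genes depend on the unit: on log2(TPM + 1) values 1378 genes rose and 4747 fell in ESC. From passage 10 back to passage 6, 20 were lower and 1 higher at passage 6 in NrESC (median -0.37), and 15 and 2 in ESC (median -0.13). For all genes, passage 6 was higher than passage 10 for 10.4% and lower for 8.89% in NrESC, and for 10.2% and 11.4% in ESC. On log2(TPM + 1) values these were 526 and 2666 genes in NrESC and 674 and 3103 in ESC. Summed over the list, glycolysis transcripts took 23329, 22035 and 27277 CPM in NrESC at passages 4, 6 and 10, against 25464, 20322 and 20525 CPM in ESC.

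**Figure D4:**
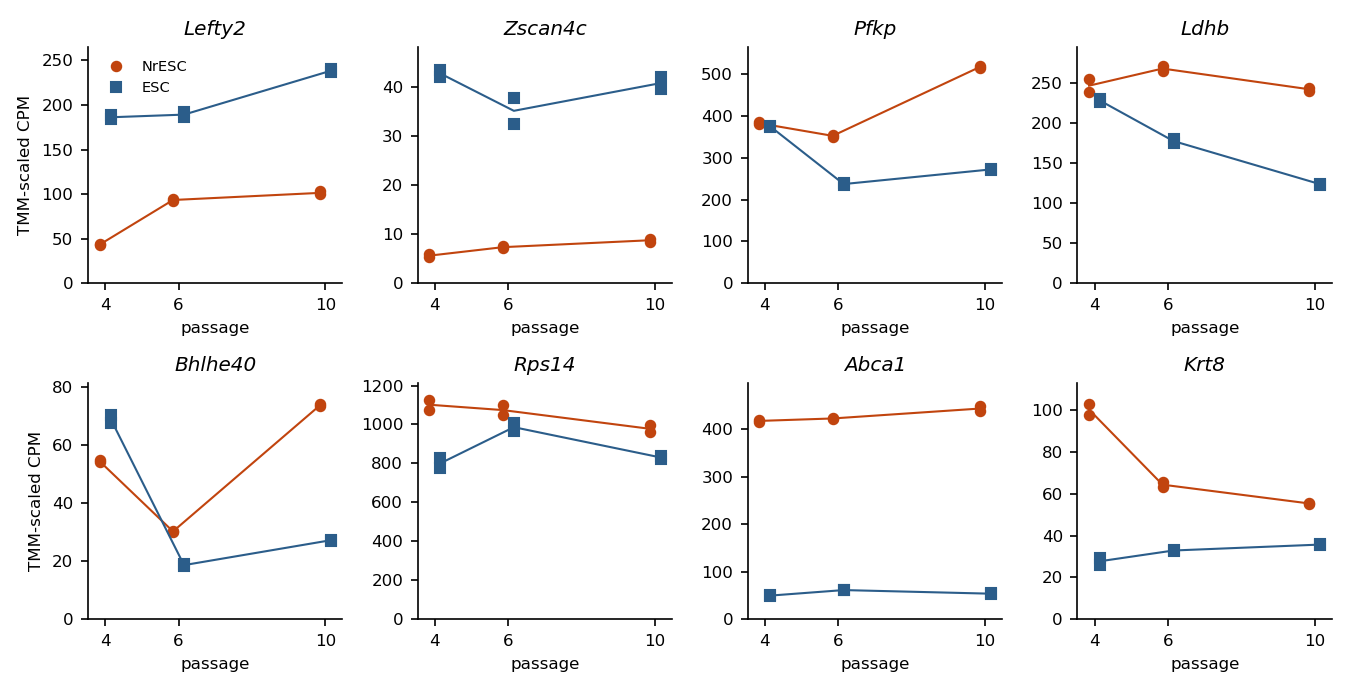
CPM of 8 genes at passages 4, 6 and 10, with NrESC and ESC as separate points and lines joining the means of the 2 libraries. Lefty2 in NrESC was about as high at passage 6 as at passage 10 and lower at passage 4, and Pfkp and Bhlhe40 fell in ESC between passages 4 and 6. Abca1 was near level in NrESC and highest at passage 6 in ESC.

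Hypoxia targets, which HIF1 switches on at low oxygen, were higher for 4 and lower for 9 of 22 at passage 6 (median -0.07). The count was 4 higher and 15 lower at passage 4 (median -0.51), and 16 higher and 3 lower at passage 10 (median 0.54). The arm difference at passage 6 was above that at passage 4 for 15 and below for 0, and against passage 10 above for 0 and below for 15. Bhlhe40, a transcriptional repressor, had 30.4 and 30.0 CPM in NrESC and 18.2 and 18.9 CPM in ESC at passage 6. At passage 4 it had 54.7 and 54.1 CPM in NrESC and 70.3 and 67.7 CPM in ESC, and at passage 10 it had 73.3 and 73.9 CPM in NrESC and 27.1 and 27.3 CPM in ESC. Both arms were thus lowest at passage 6, and the fold change was -0.34, 0.70 and 1.44 at the 3 passages. Bnip3, a mitophagy receptor, had 22.2 and 20.9 CPM in NrESC and 28.6 and 29.8 CPM in ESC at passage 6, with fold changes of -1.18, -0.44 and 1.32.

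Ribosomal protein genes had a smaller arm difference at passage 6 than at passage 4. At passage 6, 10 of 27 were higher in NrESC and 3 lower (median 0.06), and 5 were higher without ESC replicate 2. At passage 4, 25 were higher and 1 lower (median 0.23). Tested directly, the difference at passage 6 was below that at passage 4 for 23 of 27 and above it for 0. On log2(TPM + 1) values 7 were below and 0 above, with a list median of -0.085 against 0.057 for all genes. By the main model these medians were -0.16 and -0.0017. At passage 10, 15 of 27 were higher in NrESC and 1 lower (median 0.08). Against passage 10 the difference at passage 6 was below for 2 and above for 0, so it was passage 4 that stood apart for this list. Rps14 had 1050 and 1098 CPM in NrESC and 1006 and 966 CPM in ESC at passage 6, against 1076 and 1127 CPM in NrESC and 825 and 775 CPM in ESC at passage 4. The ESC libraries were higher at passage 6 and the NrESC libraries about equal. As a share of all counts, ribosomal protein transcripts took 7.60% and 7.70% in NrESC and 7.70% and 7.48% in ESC at passage 6.

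Single genes also set passage 6 apart. Lefty2 was lower in NrESC at all 3 passages, but its difference at passage 6 (-1.02) was smaller than at passage 4 (-2.11) and passage 10 (-1.23), with a departure from their mean of 0.65 (SE 0.0421, adjusted p = 1.92e-14). In NrESC it had 43.8 and 42.5 CPM at passage 4, 92.7 and 93.9 CPM at passage 6 and 103 and 99.7 CPM at passage 10. In ESC it had 184 and 189, 187 and 192, and 240 and 237 CPM at the same passages. The step between passages 4 and 6 was therefore in NrESC. Against passage 10 alone the departure of Lefty2 was 0.21 (adjusted p = 0.00175).

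The list medians of LXR targets varied less between these passages than the glycolysis median did, but single members moved more than their list. From passage 4 to passage 6 the arm difference moved by -0.50 for Mylip and by 0.51 for Mid1ip1. Abca1 differed by 3.08, 2.79 and 3.05 on the log2 scale at passages 4, 6 and 10, a departure of -0.27 at passage 6 (adjusted p = 2.07e-05). Its level in NrESC was 421 and 415, 425 and 421, and 450 and 438 CPM at these passages. In ESC it was 48.9 and 50.1, 61.7 and 60.6, and 54.2 and 53 CPM, highest at passage 6. Mylip differed by 2.55, 2.05 and 2.45 (departure -0.45, adjusted p = 0.00656) and Mid1ip1 by 2.2, 2.71 and 2.65 (departure 0.28, adjusted p = 0.021). Sterol exporters as a list had medians of 0.37, 0.52 and 0.63 and lipogenic genes 0.51, 0.44 and 0.51.

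The 2-cell-like genes had medians of -2.74, -2.32 and -2.25 at passages 4, 6 and 10, with 25, 26 and 26 of 26 called lower. Against passage 4 alone, 10 of 26 had a smaller deficit at passage 6 and 0 a larger one (6 and 0 without NrESC replicate 1), and against passage 10 alone 1 and 0. Zscan4c had 5.88 and 5.30, 7.08 and 7.55, and 8.99 and 8.46 CPM in NrESC at the 3 passages. In ESC it had 41.9 and 43.4, 32.5 and 37.7, and 41.9 and 39.6 CPM, so the arms never overlapped. Its difference at passage 6 departed from passage 4 by 0.67 (adjusted p = 1.43e-04) and from passage 10 by -0.06 (adjusted p = 0.838).

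For other genes the difference moved in 1 direction over the 3 passages. H19 differed by -2.04, -2.74 and -3.16 and Nefm by -1.63, -2.53 and -3.37, both lower in NrESC by more at each later passage. H19 had 2.46 and 2.76, 4.79 and 4.81, and 5.35 and 6.53 CPM in NrESC at passages 4, 6 and 10. In ESC it had 11.4 and 10.3, 31.9 and 32.3, and 52.5 and 52.9 CPM, so its level was higher at each later passage in both arms and more so in ESC. Krt8 went the opposite way, at 1.86, 0.97 and 0.63, with 97.8 and 103 CPM in NrESC and 29.4 and 26.0 CPM in ESC at passage 4. Dnmt3b differed by 0.08 at passage 4, -0.43 at passage 6 and -0.69 at passage 10, and Dab2 by 0.32, -1.07 and -1.37. For Dnmt3b the difference at passage 6 was 0.51 below that at passage 4 on the log2 scale (-0.51, adjusted p = 1.27e-10).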

How the data were processed

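Polyadenylated RNA of 32 libraries was measured in 16 groups of arm and passage. Expected counts by gene symbol were deposited, with a second table of TPM, which the authors scaled by gene length and to a common sum per library. The submitters' processing notes name STAR, Cufflinks 2.2.1, HTSeq 0.12.4, DESeq2, edgeR, RSEM and the mm9 build, and the role of each tool is not given in the sources used here. The deposited expected counts, of which 0.837% were fractional, were rounded, and 0 columns of values were left unused. Library totals ran from 24989651 to 50463483 counts.

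Of 24890 symbols, 15036 passed edgeR's filterByExpr. Group means were fitted to all 32 libraries by edgeR's quasi-likelihood method (edgeR 4.0.16 in R 4.3.3) after TMM scaling, which left 16 residual degrees of freedom. Benjamini-Hochberg adjustment ran over every tested gene of a comparison, and 0.05 was the threshold. Levels are TMM-scaled CPM, fold changes are log2 of NrESC over ESC, and standard errors (SE) come from this model. In simulated counts the arms were equal but for 50 genes at each fold, altered in NrESC at passage 6. There the model called 48% of genes altered 1.2-fold, 82% at 2-fold and 92% at 3-fold, with 5 false calls. In the real data 48.7% of genes were called at passage 6, so these figures do not give the recovery or the number of false calls there. Same-numbered libraries of the 2 arms did not deviate together (correlation -0.0851 to 0.0401, over 0.1 at 0 of 8 passages), so replicate numbers were not used as pairs.

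The 37 gene lists held 829 genes, of which 759 were tested, and some genes are in several lists. The comparison, its members and the lists were chosen with earlier results of these data known. Genes were named by rule: the 12 highest and 12 lowest called fold changes of passage 6 whose mean log2 CPM was 1 or more, passing over placeholder symbols. Added were 4 members per list, those of smallest p, then the 6 highest and 6 lowest called departures from the flanking passages, and a set chosen in advance. A few of the genes so named are not reported here. Other list members are given by their place in a pathway and were named after their values were seen. Alternatives were DESeq2 1.42.0 and its size factors, limma 3.58.1 on log2(TPM + 1) and log2(TPM + 0.1), other filters, a replicate block, passage 6 against other passages, and leaving out each library. Promoter sequences and their coordinates are RefSeq's, of GRCm38.p6, not of the build of the deposited files.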

Additional observations from a re-analysis of the deposited data

Results flagged for a closer look

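Among the named genes, 13 had an arm difference at passage 6 that departed from the mean of passages 4 and 10 by 1.5-fold or more, by edgeR's quasi-likelihood test with Benjamini-Hochberg adjustment. The naming rule itself took in the 6 highest and 6 lowest called departures, so this count does not show how common such departures were. Of all genes tested, 3.73% were called higher and 2.8% lower in this test, and 94.1% of those called departed by less than 1.5-fold. Values are log2 differences, NrESC over ESC, and each departure is the difference at passage 6 minus the flanking mean.

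Nodal feedback inhibitors departed together. Lefty2 departed by 0.65 (adjusted p = 1.92e-14) and Lefty1 by 0.74 (adjusted p = 0.00478), with differences for Lefty1 of -2.30, -1.01 and -1.20 at passages 4, 6 and 10. Lefty1 had 1.39 and 1.92 CPM in NrESC at passage 4 and 4.79 and 5.18 CPM at passage 6, against 8.22 and 8.49 and then 10.1 and 9.96 CPM in ESC. Against passage 10 alone Lefty1 departed by 0.19 (adjusted p = 0.586).

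Pramel7 departed by -0.89 (adjusted p = 0.00412), with -2.37, -3.58 and -3.00 at the 3 passages. Pramef17 departed by -0.77 (adjusted p = 0.0275). Against passage 10 alone neither passed, at -0.58 (adjusted p = 0.09) for Pramel7 and -0.56 (adjusted p = 0.181) for Pramef17. For Pramel7, ESC at passage 6 stood 0.78 above its own flanking mean and NrESC did not pass (-0.11). For Pramef17, ESC stood 0.62 above its flanking mean. Both belong to a family of near-identical copies.

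Entpd4, a nucleotide phosphatase, departed by 0.80 (adjusted p = 0.0427), but its ESC libraries at passage 6 differed from each other, with 19.9 and 20.3 CPM in NrESC and 18.1 and 5.81 CPM in ESC. Without ESC replicate 2 the departure was 0.06 (adjusted p = 0.901) and the arm difference 0.15 (adjusted p = 0.469), so both calls rest on that library.

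Mobp departed by 0.84 (adjusted p = 0.0482) and Pla2g4c, a phospholipase, by 0.89 (adjusted p = 0.019). Mobp differed by -3.51, -1.43 and -1.03 at the 3 passages, so passage 6 lay between the flanking values, and against passage 10 alone its departure was -0.40 (adjusted p = 0.400). Pla2g4c differed by -1.98, -0.70 and -1.19, and against passage 10 alone by 0.49 (adjusted p = 0.266). Nkx6-3, a homeobox gene, departed by 0.78 (adjusted p = 0.0231), at 0.12, 1.31 and 0.93, and did not pass against passage 10 alone (0.37, adjusted p = 0.411). Ttc9 departed by -0.85 (adjusted p = 0.00924), being lower in NrESC at passage 6 (-0.42) and higher at passages 4 (0.36) and 10 (0.51). Csf3r, a cytokine receptor, departed by -0.84 (adjusted p = 0.00672), Synm, an intermediate filament protein, by -0.82 (adjusted p = 5.02e-04), Smc1b, a meiotic cohesin subunit, by -0.78 (adjusted p = 0.00107) and Hic1, a transcriptional repressor, by -0.78 (adjusted p = 0.0272). With 1 library left out in turn, the departures of Mobp, Pla2g4c, Nkx6-3, Hic1, Csf3r and Ttc9 each missed the threshold in at least 1 case, for example Mobp without ESC replicate 2 (adjusted p = 0.131) and Nkx6-3 without ESC replicate 1 (adjusted p = 0.167). Groups of 2 libraries are too small for a test of single outlying libraries.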

How the results depend on the processing

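Of the 7322 calls at passage 6, 86.9% were kept in the same direction with DESeq2. In the other settings that kept all 4 libraries of passage 6 it was 91.3% or more, and with 1 library left out fewer calls were kept. Many named genes were chosen for large fold changes or small p in these data, so the stability of their calls was largely set by that choice. Of 176 named genes tested, 167 kept their call in every setting, 9 had another call in some setting and 0 reversed. The genes lower by 2-fold or more were 342 with a filter of 1 CPM, and on log2(TPM + 1) values 66 were higher and 130 lower by 2-fold. With 1 library left out, 2692 to 3152 genes were higher and 2898 to 3364 lower. The departure from the flanking passages was higher for 1006 and lower for 253 genes on log2(TPM + 1), and for 990 and 234 on log2(TPM + 0.1). DESeq2 called 260 lower. Against all 7 other passages 1261 were higher and 943 lower, against passage 4 alone 1245 and 1257, and against passage 10 alone 859 were higher. With 1 library left out the ranges were 344 to 402 higher and 215 to 299 lower. Mobp reversed against passage 10 alone, at -0.40 (adjusted p = 0.400). Within NrESC, passage 6 was above the flanking passages for 916 genes on log2(TPM + 1) and 928 on log2(TPM + 0.1), and with 1 library left out for 1152 to 1388, with 1083 to 1303 below. Within ESC, passage 6 was above for 694 and below for 3997 genes on log2(TPM + 1), and for 651 and 3996 on log2(TPM + 0.1). With 1 library left out the ranges were 1284 to 1314 and 1191 to 1353. On log2(TPM + 1) values the median of all genes was -0.035 within NrESC and -0.063 within ESC, against -0.0025 and 0.0019 by the main model. The cause of these shifts was not tested. A replicate block gave 3399 higher and 3585 lower genes at passage 6, and 402 and 303 for the departure. That block holds 1 library of each arm and gives no value within an arm, so a replicate block by number within an arm was added after seeing the data: passage 6 was above for 1968 and below for 1863 genes in NrESC, and for 1963 and 1833 in ESC. Steps of gene lists from passage 4 or 10 were alternatives chosen after seeing the data: glycolysis genes above passage 4 numbered 20 in each of those settings, and those below passage 10 numbered 19.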
